A study of Mus musculus with 40 samples.

Results

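The cytosolic ribosomal protein genes described here were 56 genes measured by 82 probes, of 21740 probes tested on mouse Illumina MouseWG-6 BeadChips. They were chosen by name: the symbol had to follow the pattern of the Rpl and Rps genes or be Rplp0, Rplp1, Rplp2 or Rpsa, and the Rps6k kinases were left out. A probe was kept when its detection p-value was under 0.01 on at least 3 of the 40 arrays. The pattern took 92 probes of 62 genes, and 10 probes failed the filter. These included the only probes of Rpl17, Rpl39l, Rpl3l, Rps23 and Rps4l, detected on 0 arrays, and of Rpl6, detected on 2. The others were further probes of Rplp0, Rplp2, Rps24 and Rpsa, whose genes kept another probe. The 82 probes covered 33 genes of the large subunit (51 probes) and 23 of the small subunit (31 probes), and 18 genes had more than 1 probe. No measured level entered the rule beyond this detection filter, but the members were chosen with earlier results of these data known. Genes without a probe under the pattern, such as Rpl5, Rpl11 and Rps27a, were not analysed here.

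The samples were primary neural stem cells (NSCs) from the E13.5 telencephalon of mice of a 129/Svj;C57Bl/6 hybrid strain, with floxed Id1 and Id2, no Id3 (Id3-/-) and a tamoxifen-dependent recombinase, Rosa-Cre-ER, at the ubiquitously expressed ROSA26 locus. All 14 groups carried these alleles, the vehicle groups included, so an effect of the drug or of Cre cannot be told apart from that of losing Id1 and Id2. The cells grew on laminin in medium that held both EGF and FGF-2 (20 ng/ml of each). One arm was given 4-hydroxytamoxifen (4-OHT, 250 nM), on which the recombinase enters the nucleus and deletes the floxed genes, and the other ethanol alone, called vehicle here, and RNA was taken after 6, 12, 18, 24, 48, 96 or 144 h. Each agent and time had 3 arrays, lettered A, B and C, except 2 arrays each (A and C) at 144 h. The labels name no separate cultures or animals, so p-values measure the spread between these arrays, which may be technical.

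The ribosome is built from ribosomal RNAs and about equimolar sets of proteins in a small and a large subunit, and cells keep the output of the protein genes balanced. Most of their mRNAs start with a run of pyrimidines, the terminal oligopyrimidine (TOP) tract, through which mTORC1 signalling sets how well they are translated. Growth signals can thus change ribosomal protein synthesis with little change in mRNA level, and an array reads only the mRNA. Id proteins bind basic helix-loop-helix transcription factors and keep them from DNA, and in NSCs they are known for maintaining the undifferentiated state.

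The annotated starts of a few genes are shown because the results below turn on them and because the run of pyrimidines is what most of the family is known to share. Sequences are from RefSeq on the build GRCm38.p6, 25 bases before the annotated start and 20 bases from it, and the longest unbroken run of C and T (the first, where runs tie) in the window from 10 bases before the start to 15 bases from it is in capitals where it has 5 or more bases.
Rpl22, upstream start, chr4:152324411-152324455, plus strand: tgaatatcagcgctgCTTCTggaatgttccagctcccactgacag
Rpl22, second start, chr4:152325701-152325745, plus strand: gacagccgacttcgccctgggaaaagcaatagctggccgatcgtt
Rps19, most upstream of 3 starts, chr7:24884567-24884611, plus strand: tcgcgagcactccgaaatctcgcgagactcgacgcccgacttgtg
Rps3, chr7:99483690-99483734, minus strand: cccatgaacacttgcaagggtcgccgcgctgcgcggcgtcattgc
Rpl38, chr11:114668555-114668599, plus strand: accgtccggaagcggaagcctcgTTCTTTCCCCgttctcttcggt
Rps15a, chr7:118116128-118116172, minus strand: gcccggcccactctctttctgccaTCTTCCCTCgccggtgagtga
Rpl22l1, chr3:28805483-28805527, plus strand: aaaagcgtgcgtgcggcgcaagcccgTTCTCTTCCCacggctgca

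Of the 56 genes, 47 had a start in the RefSeq promoter table. A C at the annotated start followed by at least 4 pyrimidines on the transcribed strand was present in 9 of the 47 genes (19.1%), among them Rpl38, Rps15a, Rps6 and Rplp2, against 3.01% of all 27025 genes in the table. A run of 8 or more pyrimidines within the window was present in 18 of the 47 (38.3%), against 11.0% of all genes. Only the transcribed strand was searched, the features overlap, and an annotated start can miss the true one by a few bases, so a match or its absence describes these letters alone.

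The ribosomal protein probes were among the brightest on the arrays. By mean level the median member stood at percentile 98.9 of the tested probes; 39 of the 82 lay in the brightest 1% and 58 in the brightest 10%, while 9 lay below the median. On 39 arrays the members' median raw intensity was 3401 to 9037. The dim vehicle array of replicate C at 6 h read 811, with 12947 probes detected on it against 15884 to 19186 on the others. The brightest member reached 68.3% to 100.0% of the intensity of the brightest probe on each array, and whether signals this high are compressed was not tested. Detection was complete for 72 of the 82 probes; the fewest detections were those of Rpl37 probes ILMN_1236446 (7 arrays) and ILMN_1223052 (8), of the Rpsa probe (9) and of the Rps20 probe (15), while the other Rpl37 probe (ILMN_2696977) was detected on all 40 at 13.52 to 14.12.

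Before the family, the labels were checked against the deleted genes. Id2 (probe ILMN_1228557) fell by 2.01 ± 0.24 (SE, log2) at 18 h and by 4.94 ± 0.24 at 96 h. Id1 fell by 1.87 ± 0.25 at 48 h and by 4.79 ± 0.25 at 96 h. Id4 (ILMN_2678714), which was left intact, rose by 3.32 ± 0.25 at 96 h (limma, adjusted p = 1.82e-16, 2.16e-15 and 2.09e-11 at 96 h). Of 11 neural stem cell markers on the arrays 7 were detected on all 40, among them Nes, Sox2, Vim and Fabp7, whereas Msi1 was detected on none and Pax6 on 5. All 4 endothelial markers, 4 of 5 fibroblast markers and both erythroid markers were detected on none, and no microglial marker was detected on all arrays. The microglial marker P2ry12 was detected on 22 arrays and the other microglial markers on 0 or 1. Neuronal and glial markers were present in part: 3 of 9 neuronal markers (Map2, Syt1 and Gad1) and 2 of 8 of the oligodendrocyte lineage (Cspg4 and Cnp) were detected on all 40. Markers of the oligodendrocyte lineage moved with the agent: 7 of 12 tested probes rose at 96 h and 10 of 12 at 144 h (4.48% and 6.6% of all probes were called in either direction), among them Cnp (2 probes, 2.38 and 2.56 at 96 h), Gpr17 (3.75) and Mbp, while Mog was detected on no array. The mean log2 level of these 12 probes was 6.91 to 8.49 on the 4-OHT arrays of 96 h and 5.57 to 6.47 on the vehicle arrays. Of 17 neural stem cell probes 5 fell at 96 h, 4 of Egfr and 1 of Slc1a3, with list means of 7.95 to 8.28 and 7.96 to 8.71. The 16 neuronal probes had means of 6.93 to 7.49 and 6.50 to 7.09, with 1 call at 96 h (Map2 higher) and 5 at 144 h, probes of Dcx, Map2 and Syt1, all higher. Of 5 astrocyte probes S100b rose at both times (0.82 and 0.76) and the 2 Gfap probes fell by 1.41 and 2.56 at 144 h, with list means of 5.05 to 5.59 on the 4-OHT arrays of 144 h and 5.92 to 6.76 on the vehicle arrays. The part of these markers in the results on ribosomal proteins was not tested. In RNA from many cells, fewer cells of a type and less RNA per cell cannot be told apart.

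The first comparison asked whether loss of Id1 and Id2 changed ribosomal protein mRNA levels. No ribosomal protein probe was called at any of the 7 times. Their median difference, 4-OHT minus vehicle, was 0.02, 0.03, 0.06, 0.04, 0.00, 0.03 and 0.03 (log2) at 6, 12, 18, 24, 48, 96 and 144 h. At 96 h, when Id1 and Id2 transcripts were at their lowest or near it, the 82 differences ran from -0.45 to 0.24, with quartiles at -0.01 and 0.08. The quartiles of all tested probes at that time were -0.15 and 0.16. When arrays were scaled by their median in place of quantiles, the family's medians were 0.58, 0.10, -0.04, 0.02, -0.07, 0.07 and -0.11. Those of all probes were 0.34, 0.02, -0.10, -0.04, 0.04, 0.07 and -0.11. The sign of the family's median thus depended on the scaling at 18 and 144 h, and at 48 h it moved from 0.00 to -0.07. Less the median of all probes, it was 0.06 under both scalings at 18 h. With quantiles and then median scaling this was 0.00 and -0.11 at 48 h, and 0.02 and 0.00 at 144 h. The 6 h value rested on the dim array: without it the medians under median scaling were -0.06 and -0.07, and the family's median under quantiles was 0.02.

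A call here is an adjusted p under 0.05 in limma with Benjamini-Hochberg adjustment over all 21740 probes. At 6 and 12 h 0 of the 82 were called and 0.0% of all probes. The count was also 0 of 82 at 18 h, against 0.0782% of all probes, and at 24 h, against 0.248%. At 48 h 0 of 82 were called against 0.92%, at 96 h 0 against 4.48%, and at 144 h 0 against 6.6%. At an unadjusted p under 0.05 the counts of ribosomal protein probes were 0, 3, 0, 1, 2, 1 and 5 at the 7 times, and the shares of all probes were 6.78%, 5.03%, 2.94%, 3.73%, 6.22%, 13.3% and 16.6%. The lowest adjusted p of any member was 0.149, for Rps27l at 144 h. The F test for a difference at any time called 0 of 82 against 5.98% of all probes, with 2 members at an unadjusted p under 0.05. Groups without overlap between the arrays of both agents were counted as a second reading of the same arrays. From 6 to 96 h they were found for 8, 10, 4, 8, 6 and 7 of the 82 probes. The shares of all probes without overlap were 11.1%, 9.89%, 7.22%, 11.0%, 14.9% and 19.1%, and those of the family 9.76%, 12.2%, 4.88%, 9.76%, 7.32% and 8.54%. At 144 h, with 2 arrays a group, 18 of 82 (22.0%) did not overlap, against 34.7% of all probes. Among the other 2116 probes of the brightest 10%, which are not matched to the members in level, 4.16% were called at 96 h and 7.66% at 144 h.

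The intervals show how large a difference in normalized signal the arrays could have missed. They do not cover a change lost to compression of bright signals, which was not tested. Nor do they cover a shift shared by the brightest probes, which the normalization removes. At 96 h the 95% confidence interval of the difference lay within 1 log2 unit, or 2-fold, for all 82 probes, and at 144 h, with 2 arrays a group, for 78. The 4 exceptions at 144 h were Rpl22l1, Rpl30 (ILMN_2878424), Rpl7l1 (ILMN_2661407) and Rps15a. Of all tested probes 85.5% and 70.6% met the same limit at 96 and 144 h. For 74 of the 82 the interval stayed within 2-fold at all 7 times, and for 51 no estimated difference exceeded 0.25 at any time. Rps14, a small-subunit protein, gave differences of 0.05, 0.03, 0.01, 0.03, -0.02, 0.02 and 0.03, with an interval of -0.15 to 0.20 at 96 h.

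**Figure D1:**
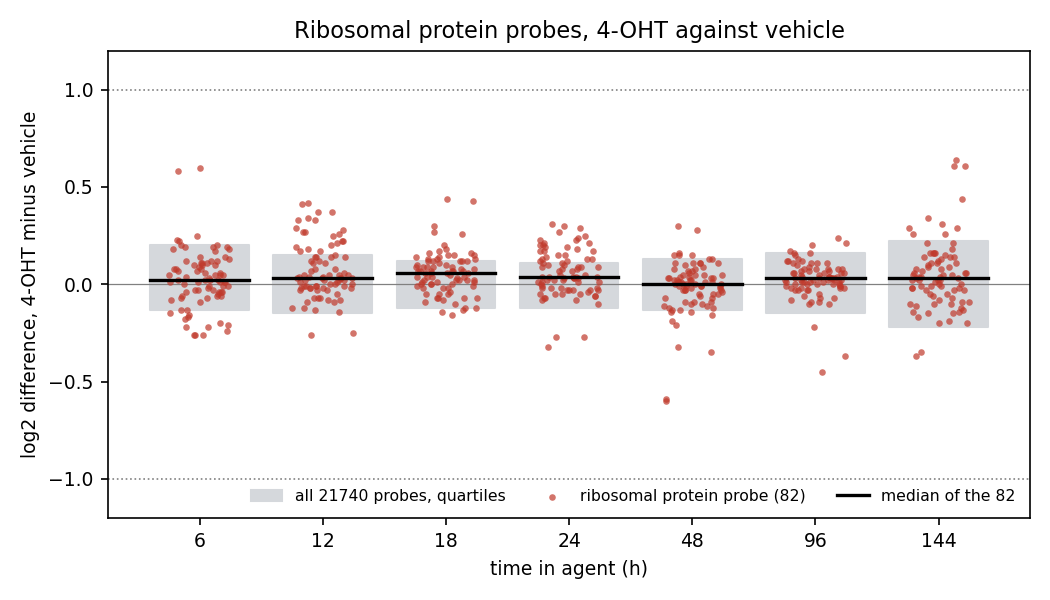
Log2 difference of each of the 82 ribosomal protein probes, 4-OHT minus vehicle (vertical axis), at each time in hours (horizontal axis, not to scale). Black bars are the medians of the 82, which stay between 0.00 and 0.06; grey boxes span the quartiles of all 21740 tested probes; dotted lines mark 2-fold.

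**Figure D2:**
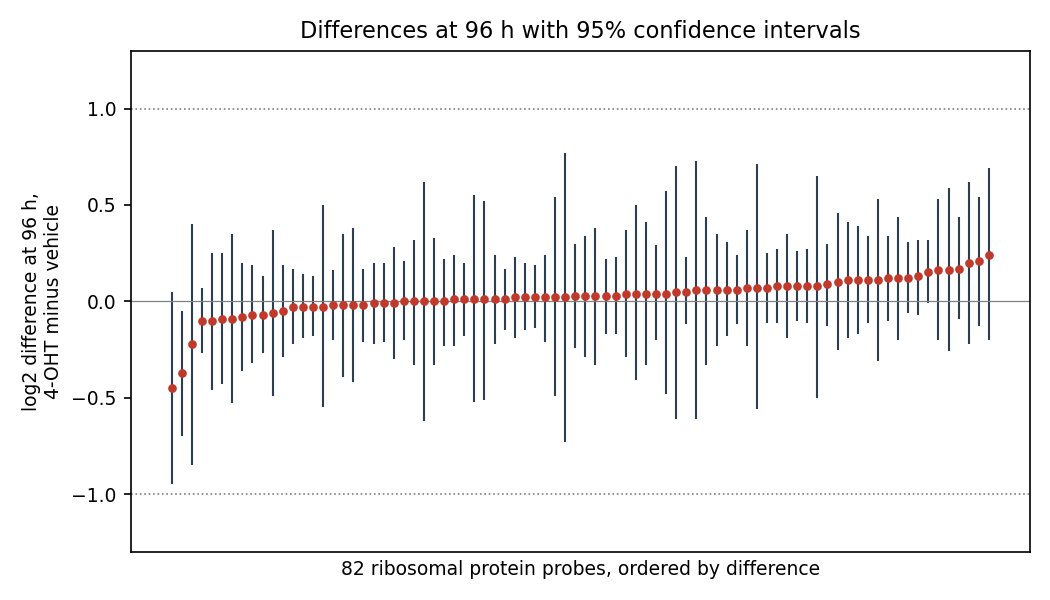
Log2 difference at 96 h, 4-OHT minus vehicle, for the 82 probes in order of size (points), with 95% confidence intervals from the model (lines). All 82 intervals lie inside the dotted lines at 1 log2 unit.

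The mean level of the family on single arrays differed little between the agents, and where it did the 4-OHT arrays were more often the higher. With vehicle at 96 h the mean over the 82 probes was 11.13, 11.14 and 11.10 on replicates A, B and C, and with 4-OHT it was 11.15, 11.15 and 11.14. At 48 h vehicle read 11.28, 11.23 and 11.05 and 4-OHT 11.20, 11.23 and 11.08. The groups overlapped at 48 h, and at 96 h the 4-OHT arrays equalled or exceeded the vehicle arrays by at most 0.05. At 12 h all 4-OHT arrays (11.10, 11.08 and 11.11) lay above all vehicle arrays (10.99, 11.06 and 11.01). Within letters 4-OHT was higher in every pair at 12, 24, 96 and 144 h, by 0.01 to 0.11, and not in every pair at 6, 18 and 48 h, where the differences ran from -0.08 to 0.10. Of the 82 single differences 48, 54, 59, 56, 42, 57 and 50 were positive at the 7 times (58.5%, 65.9%, 72.0%, 68.3%, 51.2%, 69.5% and 61.0%), against 54.9%, 50.3%, 49.7%, 49.6%, 49.3%, 51.7% and 50.9% of all probes. These probes share their arrays and are not independent, and under median scaling the sign of the family's median differed as given above. Over all 40 arrays the mean ran from 10.93 to 11.28. Array numbers in the labels fall into 3 runs, and the labels do not say whether these are batches: the first holds A and B from 18 to 144 h, the second C at those times, the third all arrays of 6 and 12 h. The median array mean was 11.19 in the first run, 11.08 in the second and 11.02 in the third, so levels at 6 and 12 h cannot be set against later times apart from the run. Within the first run the median difference between agents was 0.03, 0.02, -0.01, 0.02 and 0.06 at 18, 24, 48, 96 and 144 h, and within the second it was 0.08, 0.06, 0.01, 0.05 and 0.01.

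**Figure D3:**
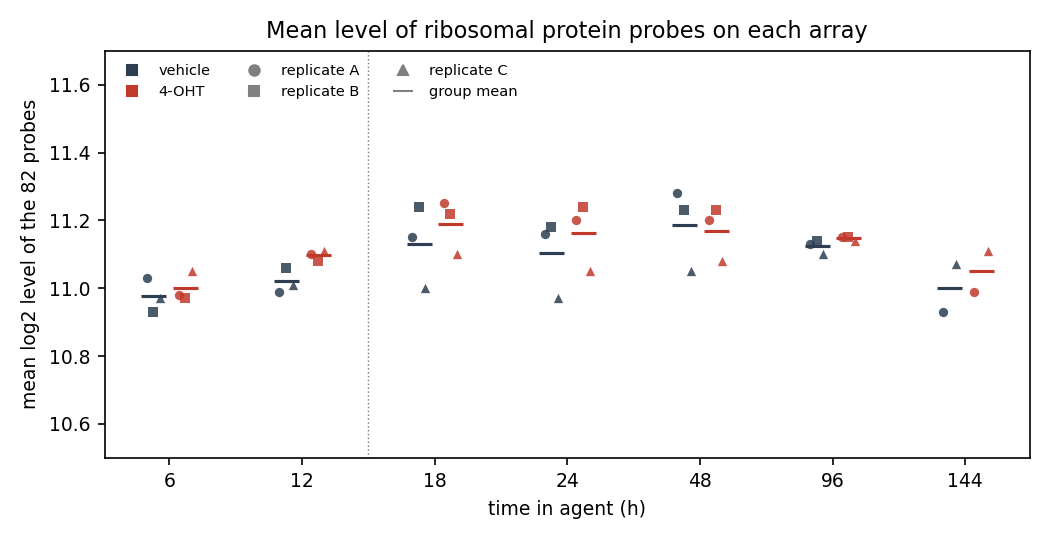
Mean log2 level of the 82 ribosomal protein probes on each of the 40 arrays (points, shaped by replicate letter) by time in hours, with group means as bars. Vehicle and 4-OHT arrays lie within 10.93 to 11.28, and the triangles of replicate C lie lowest in each group from 18 to 48 h; the dotted line separates the run of 6 and 12 h.

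The members' own scatter was small. The median residual SD between arrays of a group was 0.16 for ribosomal protein probes and 0.26 for all tested probes (log2). Among probes of the brightest 10% it was 0.13 for the 58 members and 0.22 for the 2116 others, which are not matched to the members in level. Across all 40 arrays the full range of a member had a median of 0.76, and 18 members had a range under 0.5. The narrowest, 0.36, belonged to a probe of Rps9 (ILMN_1377921) and to Rps21 (ILMN_1240898). The widest was that of Rpl22l1, at 2.45.

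By role, the proteins of the ribosomal stalk, which recruits translation factors, had differences at 96 h of -0.02 for Rplp0, -0.08 for Rplp1 and 0.00 for Rplp2. Rps6, the substrate of S6 kinase, differed by 0.12 (interval -0.10 to 0.34), and Rpsa, also known as a laminin receptor, by 0.20, on a probe detected on 9 arrays. Rpl10a and Rpl13a differed by 0.01 and 0.04, Rpl3, which lies near the catalytic centre, by -0.07, Rps4x by 0.02 and Rpl39, at the exit tunnel, by 0.02. None of these was called. Of the paralogs, which stand beside or replace a more widespread family member, Rpl22l1, Rpl7l1 and Rps27l passed the filter, and Rpl3l and Rpl39l did not. Rps4l, annotated as a transcribed pseudogene, also failed the filter. Rps27l, known as a target of p53, was 12.86 and 13.20 on the 4-OHT arrays at 144 h and 13.23 and 13.53 on the vehicle arrays. The 4-OHT arrays were lower within each letter, by 0.37 and 0.33, and the groups did not overlap. The difference was -0.35 ± 0.14 (SE, n = 2 each, limma, adjusted p = 0.149), against 0.02 at 96 h.

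Among the lowest differences was that of Rpl38, a large-subunit protein needed in the mouse for correct patterning of the axial skeleton. At 48 h its probe ILMN_2594971 read 9.18, 9.37 and 9.79 with 4-OHT and 9.96, 9.95 and 10.20 with vehicle on replicates A, B and C. All 4-OHT arrays lay below all vehicle arrays at 48 h. At 96 h the values were 8.94, 8.85 and 9.70 against 9.55, 9.38 and 9.90, and the groups overlapped. The difference was -0.59 ± 0.24 (SE) at 48 h and -0.45 ± 0.24 at 96 h (limma, adjusted p = 0.565 and 0.462). With the replicate letter as a block the difference passed at both times (SE 0.12, adjusted p = 0.00383 and 0.0126), where 3.45% and 11.6% of all probes were called. It was -0.13 at 144 h. The second Rpl38 probe (ILMN_3135931), near the top of the intensity range, differed by -0.11 at 48 h and 0.08 at 96 h.

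The block also called Rpl29, a large-subunit protein, at 96 h, by its probe ILMN_2730005. With 4-OHT it read 9.59, 9.46 and 9.80 and with vehicle 9.92, 9.85 and 10.20. The difference was -0.37 (adjusted p = 0.247 without and 0.0224 with the block), lower within every letter. The second Rpl29 probe (ILMN_2857570) differed by 0.03. At 144 h the block called 3 of 82 (3.66%), against 16.3% of all probes: Rps15a at 0.61 (adjusted p = 0.00505), Rpl30 (ILMN_2878424) at 0.64 (0.0133) and Rps27l at -0.35 (0.0206). For any time the block called Rps15a, Rpl38 and Rpl29, 3 of 82, against 17.7% of all probes. At 6, 12, 18 and 24 h it called 0, against 0.0%, 0.023%, 0.626% and 1.49% of all probes (limma). With the array run as the block in place of the letter, 0 of 82 were called at 48, 96 and 144 h and at any time. The shares of all probes were then 1.64%, 7.08%, 10.1% and 9.77%, so the calls named here depended on which block was used.

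Rps15a, a small-subunit protein, read 8.43 and 7.52 with 4-OHT at 144 h and 7.84 and 6.88 with vehicle, for replicates A and C. The letters differed more than the agents did, and the groups overlapped. Without the block its adjusted p was 0.218. Leaving out 4-OHT replicate C gave a difference of 1.07 (adjusted p = 0.029), and leaving out vehicle replicate A gave 1.10 (0.0195). Either fit leaves 1 array in an arm, which is taken to vary like the other groups, and sets arrays of unequal letters against each other. Those were the only 2 of 40 fits leaving out 1 array of the groups compared in which any member was called at a single time. For the F test over all times, leaving out vehicle replicate A at 6 h called 1 probe, Rpl34 (adjusted p = 0.0409).

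The other large estimates were spread over probes and times. At 48 h the dim Rps19 probe (ILMN_2754355) read 5.08, 4.94 and 5.38 with 4-OHT and 5.73, 5.70 and 5.77 with vehicle. The groups did not overlap, but the difference of -0.60 ± 0.22 was not called (adjusted p = 0.388), and it was 0.04 at 96 h. The bright Rps19 probe differed by 0.00 at 48 h. At 6 h Rpl7l1 (ILMN_2661407), a paralog of Rpl7, read 6.82, 6.87 and 6.96 with 4-OHT and 6.98, 6.49 and 5.37 with vehicle, a difference of 0.60 ± 0.31 (adjusted p = 0.748). Its lowest value was on the dim array. Rpl14 (ILMN_1227142) differed by 0.58 at 6 h and Rplp0 by 0.25, and Rplp2, Rpl21 (ILMN_2688863) and Rpl30 (ILMN_2878430) by -0.26 each. The dim Rpl14 probe was detected on 0 of the vehicle arrays at 6 h and on 3 of the 4-OHT arrays.

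The probes with the largest differences changed from time to time. A positive difference at all 7 times was found for 5 of the 82 probes, of Rpl32, Rpl34, Rps25, Rps3a1 and Rpl37 (ILMN_1236446), and a negative one for 0. These genes were picked out for that pattern after their values were seen, and none was called. The share of all probes with the same sign at all times was not counted. This Rpl37 probe was detected on 7 arrays, and Rpl34 at 96 h had means of 12.54 with 4-OHT and 12.53 with vehicle. At 12 h Rpl7l1 (0.42), Rps15a (0.41) and Rps24 (ILMN_2625060, 0.37) were the highest and Rplp2 (-0.26), Rpl27a (ILMN_1221403, -0.25) and Rpl37 (ILMN_1223052, -0.14) the lowest. At 18 h Rps15a (0.44), Rpl28 (0.43) and Rpl21 (ILMN_1225201, 0.30) stood against Rpl23 (ILMN_2685675, -0.16), Rplp2 (-0.14) and Rpl4 (ILMN_2631003, -0.13). At 24 h the extremes were Rps24 (ILMN_1214875, 0.31), Rps13 (0.30), Rps15a (0.29), Rpl38 (-0.32), Rps15 (-0.27) and Rpl29 (-0.27). At 48 h Rps20 (0.30), Rps9 (ILMN_2643092, 0.28) and Rplp0 (0.16) were highest, and Rpl21 (ILMN_1225201, -0.35) was lowest after Rps19 and Rpl38. At 96 h Rps15a (0.24), Rpl30 (ILMN_2878430, 0.21) and Rpsa (0.20) were highest and Rps24 (ILMN_2625060, -0.22) lowest after Rpl38 and Rpl29. At 144 h Rpl22l1 differed by 0.61 ± 0.45, Rpl29 by -0.37 and Rpl31 (ILMN_3073486) by -0.20.

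In the F test over all times the smallest p belonged to Rpl34, a large-subunit protein, whose differences were 0.19, 0.27, 0.13, 0.12, 0.13, 0.00 and 0.31 at the 7 times (adjusted p = 0.151). Rpl29 (0.32), Rps15a (0.39), Rpl26 (0.489), a large-subunit protein that also binds p53 mRNA, and Rpl38 (0.691) followed. For Rps15a the difference was positive at 5 of the 7 times, at 0.41, 0.44, 0.29, 0.24 and 0.61 at 12, 18, 24, 96 and 144 h, and it was -0.01 and -0.09 at 6 and 48 h. Rpl22 differed between agents by -0.07, 0.07, 0.00, 0.17, 0.03, 0.12 and -0.10, and its paralog Rpl22l1 by -0.01, 0.34, 0.07, 0.17, 0.15, 0.02 and 0.61.

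Of the 18 genes with several probes, between 5 and 11 had probes that differed in the same direction at a given time. Many ribosomal protein genes have processed pseudogenes of near-identical sequence, and which copies a probe reads was not examined.

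Late and early effects were also compared directly. The late difference (mean of 96 and 144 h) less the early one (mean of 18 and 24 h) had a median of -0.01 over the 82 probes and ran from -0.29 to 0.28. It was called for 0 of 82, against 2.94% of all probes, with 1 member at an unadjusted p under 0.05 (limma). With the block it was again 0, against 9.43%.

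The second question was how the family behaved with time in culture, within 1 agent. From 18 to 96 h in vehicle the median difference over the 82 probes was 0.01, and 2 were called (2.44%), against 5.99% of all probes. In 4-OHT it was -0.01, and again 2 were called (2.44%), against 10.1%. After Rpl22, the highest differences were those of Rpl24 (0.32 in vehicle and 0.33 in 4-OHT, adjusted p = 0.197 and 0.145). Both agents called the same 2 probes, Rpl22 higher and a dim Rps19 probe lower. Arrays of 18 and 96 h did not overlap for 9 of 82 probes in vehicle (11.0%) and 12 in 4-OHT (14.6%), against 23.1% and 24.4% of all probes. With the letter as a block across times the calls were 2 and 3, against 9.93% and 14.5%.

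Rpl22, a large-subunit protein that also binds structured RNAs and is best known for its need in T-cell development in the mouse, rose with time. In vehicle it read 11.01, 10.90 and 10.62 at 18 h on replicates A, B and C, 10.96, 11.11 and 11.10 at 24 h, and 11.60, 11.49 and 11.15 at 48 h. At 96 h it read 11.82, 11.76 and 11.27, and at 144 h 11.79 and 11.84. All vehicle arrays of 96 and 144 h lay above all vehicle arrays of 18 and 24 h. In 4-OHT it read 10.98, 10.88 and 10.69 at 18 h and 12.01, 11.97 and 11.23 at 96 h, again without overlap. The change from 18 to 96 h was 0.77 ± 0.16 (SE) in vehicle, a 1.71-fold rise (n = 3 each, limma, adjusted p = 0.0036), and 0.89 ± 0.16 in 4-OHT, a 1.85-fold rise (adjusted p = 0.000436). The F test over 18 to 144 h called it in both agents (adjusted p = 0.000308 and 0.000876).

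The rise in 4-OHT minus that in vehicle was 0.11, with a 95% interval of -0.34 to 0.57 (adjusted p = 1.0). A difference of this kind was called for 0 of the 82, against 0.258% of all probes. Within the first run the rise was 0.83 in vehicle and 1.06 in 4-OHT, and within the second run 0.65 and 0.54. Scaling arrays by their median kept the differences (0.80 and 1.07) but not the calls (adjusted p = 0.551 and 0.234). With the dim array left out as well the call returned in 4-OHT (0.0247) and not in vehicle (0.158). Rpl22l1, the paralog of Rpl22, had the widest scatter of the family. Its level in vehicle was 8.24, 8.81 and 7.34 at 18 h, 8.33, 8.41 and 7.78 at 96 h, and 6.90 and 7.81 at 144 h. From 18 to 96 h it changed by 0.04 in vehicle and by -0.01 in 4-OHT. From 18 to 144 h in vehicle it differed by -1.63 within the first run and by 0.47 within the second, so its direction depended on the run.

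Rps19, a small-subunit protein mutated in a share of patients with Diamond-Blackfan anaemia, was read by 2 probes that disagreed. The dim probe ILMN_2754355 read 5.74, 5.67 and 5.82 in vehicle at 18 h and 4.57, 4.90 and 5.31 at 96 h, where 1 of 3 arrays missed detection. In 4-OHT it read 5.96, 6.08 and 5.56 and then 4.96, 4.74 and 5.19. Neither agent's groups overlapped. It fell by 0.82 ± 0.22 in vehicle (limma, adjusted p = 0.0253) and by 0.90 ± 0.22 in 4-OHT (adjusted p = 0.00898). The bright probe ILMN_2862280 changed by 0.06 and 0.05. In vehicle the call was lost on leaving out replicate A, B or C at 18 h (adjusted p = 0.0851, 0.0849 and 0.0508) or replicate A or B at 96 h (0.194, with a difference of -0.64, and 0.101). In 4-OHT it was lost without replicate B at 18 h (0.0727) and without A or B at 96 h (0.0525 and 0.0759).

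**Figure D4:**
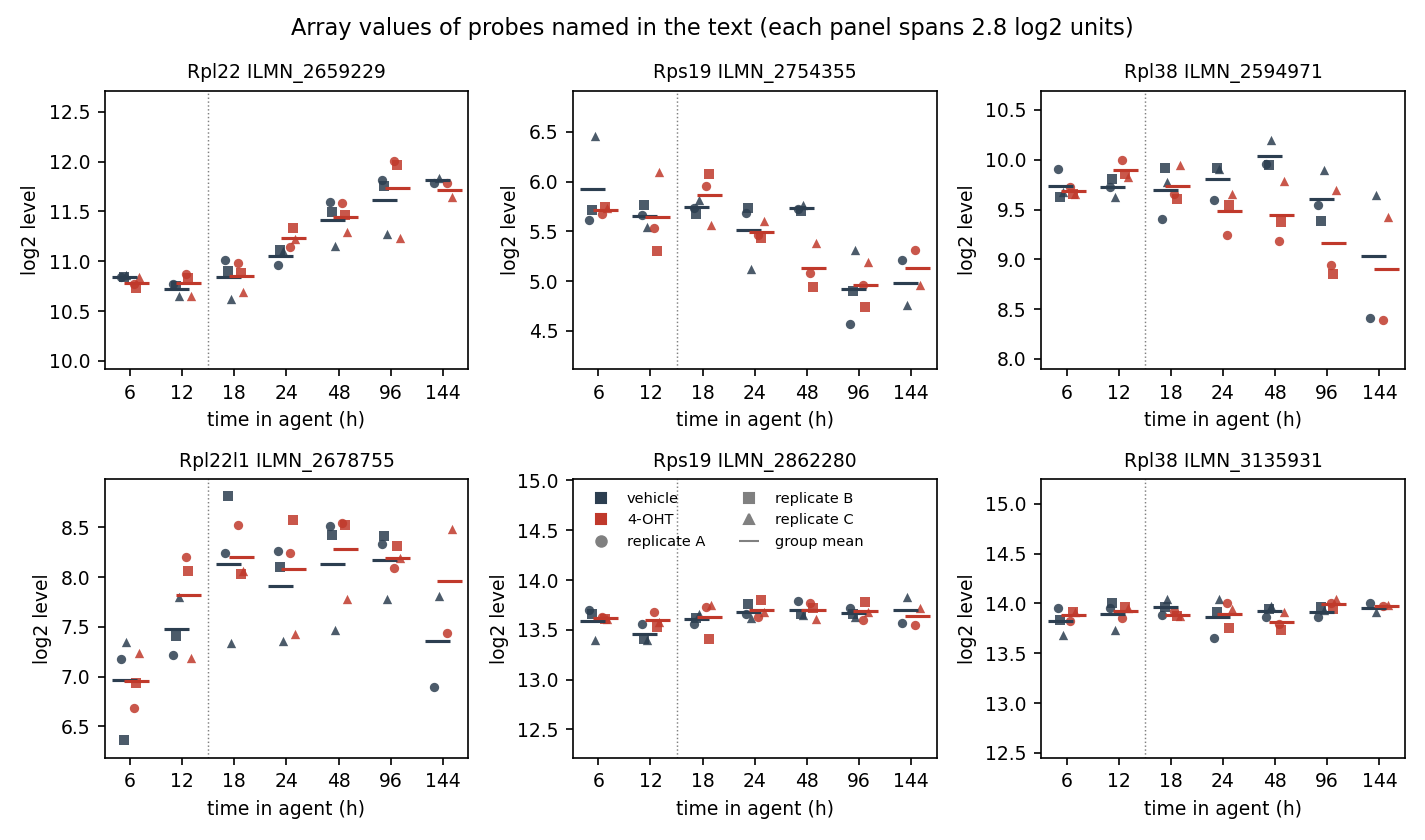
Array values (log2 level) of probes of Rpl22, Rpl22l1, Rps19 and Rpl38 by time in hours, coloured by agent and shaped by replicate letter, with group means as bars; each panel has its own axis of 2.8 log2 units. Rpl22 climbs from about 10.84 at 18 h to 11.82 at 144 h in vehicle with 4-OHT beside it, and the second probes of Rps19 and Rpl38 stay level.

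The F test over 18 to 144 h in vehicle called 3 of 82 probes (3.66%), against 13.8% of all probes, and added Rpl30 (ILMN_2878424, adjusted p = 0.00169), a large-subunit protein. Rpl30 read 7.49, 8.11 and 7.29 at 18 h, 7.85, 7.79 and 7.80 at 48 h, 6.99, 7.07 and 7.69 at 96 h, and 6.56 and 6.74 at 144 h. Its lowest values were the 2 at 144 h. From 18 to 96 h it differed by -0.77 within the first run and by 0.40 within the second, and from 18 to 144 h by -1.24 and -0.55. Its second probe (ILMN_2878430) differed by -0.68 and -0.06 over 18 to 144 h and was not called. Leaving out vehicle replicate C at 96 h or at 144 h raised the count to 5, with Rpl7a and the second Rpl30 probe or with Rpl38 and Rpl12 added. Rpl7a and Rpl38 (ILMN_2594971) came next in vehicle (adjusted p = 0.0563 and 0.0882). In 4-OHT the F test called 2 (2.44%), Rpl22 and Rps19, against 9.94% of all probes, and Rpl26, Rpl38 and Rps27l followed (adjusted p = 0.14, 0.183 and 0.184). The Rps19 call there (adjusted p = 0.0306) was lost without 4-OHT replicate A or B at 18 h (0.119 and 0.163) or at 96 h (0.069 and 0.0889), and in vehicle without replicate A at 96 h (0.0691). With the letter as a block across times Rpl38 (ILMN_2594971) was called in 4-OHT from 18 to 96 h at -0.58 (adjusted p = 0.02) and in the F tests of both agents (adjusted p = 0.012 in 4-OHT and 0.00326 in vehicle), where 13.4% and 17.6% of all probes were called.

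Between 6 and 12 h, all within the third run, 1 of 82 probes was called in 4-OHT (1.22%), against 0.322% of all probes. This was Rps3 (ILMN_2637639), a small-subunit protein that also acts in DNA repair. It read 12.71, 12.67 and 12.63 at 6 h and 13.29, 13.31 and 13.29 at 12 h, without overlap, a rise of 0.63 ± 0.12 (SE, n = 3 each, limma, adjusted p = 0.0141). In vehicle it read 13.04, 12.71 and 12.85 and then 13.26, 13.08 and 13.52, a difference of 0.42. The difference between the 2 changes was 0.21 (interval -0.14 to 0.56, adjusted p = 1.0), so a difference between agents was not shown, and 0 of 82 and 0.0% of all probes were called for it. The second Rps3 probe (ILMN_2594103) gave 0.30 in 4-OHT. Larger but less precise differences were those of Rpl22l1 (0.86 ± 0.37, adjusted p = 0.438) and Rpl4 (ILMN_2631003, 0.69 ± 0.26, 0.319), and the lowest was Rps29 (-0.26 ± 0.08, 0.158). This Rpl4 probe was detected on 0 of the 4-OHT arrays at 6 h. The Rps3 call was lost without 4-OHT replicate A, B or C at 6 h (adjusted p = 0.0628, 0.0616 and 0.0975) or B or C at 12 h (0.0632 and 0.0516). In vehicle 0 of 82 were called between 6 and 12 h, against 0.469% of all probes, with 7 at an unadjusted p under 0.05. Rpl14 (0.78), Rpl27a (ILMN_1221403, 0.71) and Rpl4 (ILMN_2631003, 0.69) had the largest estimates there. These dim probes were detected on 0 vehicle arrays at 6 h, with means of 4.45, 4.45 and 4.66. Over the probes of Rpl27a the estimates ran from 0.04 to 0.71, and over those of Rpl4 from 0.21 to 0.69. Without vehicle replicate A at 6 h Rps3 was called (0.50, adjusted p = 0.0395).

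Arrays of 6 and 12 h did not overlap for 20 of 82 probes in 4-OHT (24.4%) and 10 in vehicle (12.2%), against 25.5% and 13.3% of all probes.

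Other genes of ribosome production were set beside the family by their counts and medians. The factors that assemble ribosomes in the nucleolus (46 probes of 29 genes) had a median change of -0.43 in vehicle and -0.47 in 4-OHT from 18 to 96 h, where the ribosomal proteins had 0.01 and -0.01 and all probes -0.03 and -0.02. They were lower in 43 of 46 probes in vehicle (93.5%, against 54.3% of all probes) and in 46 of 46 in 4-OHT (100%, against 52.2%). Of these probes 1 was called lower in vehicle (2.17%) and 6 in 4-OHT (13.0%), and none higher, where 5.99% and 10.1% of all probes were called. Pno1, a factor of small-subunit maturation, fell by 0.86 ± 0.25 and 0.89 ± 0.25 (limma, adjusted p = 0.0376 and 0.0221). Bop1, of large-subunit processing, fell by 1.10 ± 0.34 in 4-OHT (adjusted p = 0.0366). Mrto4, Tsr1 and Rrp1b fell by 0.62, 0.89 and 0.66 there (adjusted p = 0.0366, 0.0435 and 0.0439). Cell type markers moved over the same interval. In vehicle 5 of 16 neuronal probes were called, 4 lower (Syt1 by -1.37) and 1 higher, and 4 of 17 neural stem cell probes, 3 of them higher (Hes5 by 2.51), against 0 of 12 of the oligodendrocyte lineage. In 4-OHT 9 of 12 oligodendrocyte probes rose (Mbp by up to 5.54, Sox10 by 4.71), with list means of 5.95 to 6.03 at 18 h and 6.91 to 8.49 at 96 h, and 2 neuronal probes, of Dcx, rose by up to 2.17. Neural stem cell probes called in 4-OHT went both ways: Hes5 (2.85 and 2.90) and Sox2 (1.45) higher, Egfr lower (-0.62, -0.74 and -0.72). The astrocyte marker S100b rose there by 0.80. The neuronal mean in vehicle was 6.94 to 7.12 at 18 h and 6.50 to 7.09 at 96 h. Their part in the change of these lists was not tested. With median scaling, where all probes together stood at 0.12 in 4-OHT and -0.04 in vehicle, the assembly list had -0.28 and -0.45, and 0 of its probes were called.

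Mitochondrial ribosomal proteins, which serve translation inside mitochondria (116 probes of 73 genes), had medians of -0.22 in vehicle and -0.32 in 4-OHT. Of these 9 were called in vehicle (7.76%) and 19 in 4-OHT (16.4%), all lower, against the same 5.99% and 10.1% of all probes. In 4-OHT the smallest p-values were those of Mrpl12, which fell by 0.85 ± 0.18 (limma, adjusted p = 0.00206), of Mrps18b probes ILMN_1226334 and ILMN_2677047 (which fell by 1.21 each, 0.00318 and 0.00492; another, ILMN_2865239, fell by 0.82, 0.0407), of Mrpl16 (fell by 0.74, 0.00597) and of Mrps25 (fell by 1.16, 0.00685). In vehicle Mrps25 fell by 1.06 ± 0.28 (adjusted p = 0.0198), Mrps10 by 0.56 (0.0263) and Mrps18b by 0.93 (0.0305). Median scaling gave -0.21 in vehicle and -0.09 in 4-OHT with 0 called. RNA polymerase I subunits and factors (24 probes of 13 genes), which make ribosomal RNA, had -0.31 and -0.27 (in 4-OHT -0.04 with median scaling) with 1 call, Ubtf higher in vehicle (0.94, adjusted p = 0.00872). Translation factors and other mRNAs of the TOP class (41 probes of 18 genes) had 0.02 and -0.06. Of these Eef1a1 (ILMN_1244894) fell by 1.25 ± 0.22 in vehicle (adjusted p = 0.000694) and by 1.01 ± 0.22 in 4-OHT (0.0028), and Eif4a2 rose by 0.50 in 4-OHT (0.0407). Growth-control genes (31 probes of 17 genes) had -0.13 and -0.04; Eif4e and Mdm2 fell by 1.01 and 0.48 in 4-OHT (0.0152 and 0.0304). The 1 tested probe of the other ribosomal parts outside the name pattern was not called, at 0.16 and -0.06.

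**Figure D5:**
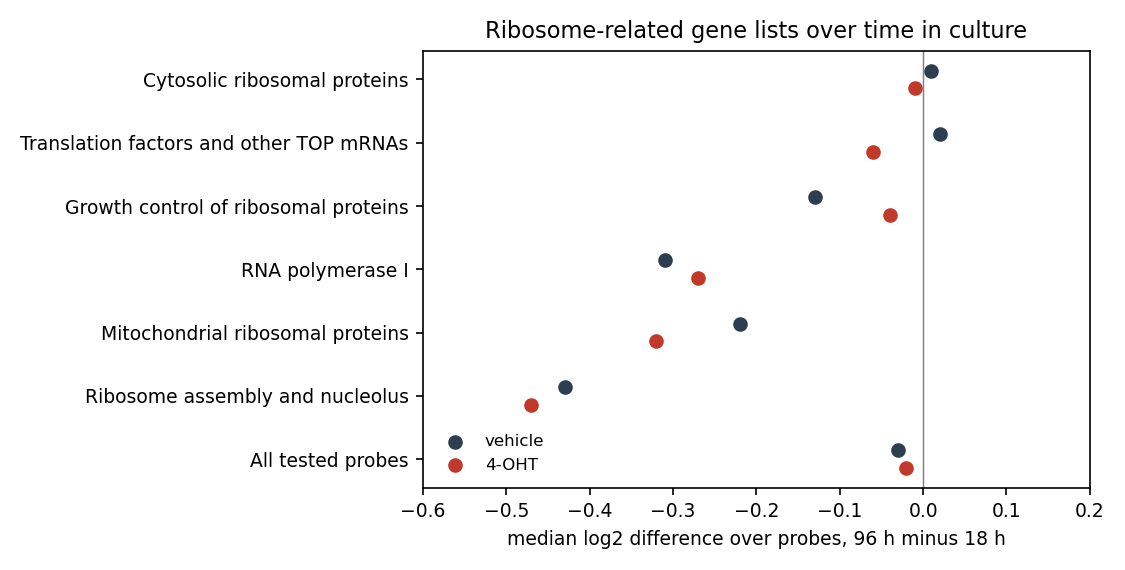
Median log2 difference over the probes of each list, 96 h minus 18 h, in vehicle and 4-OHT (one point per agent). Cytosolic ribosomal proteins lie at 0.01 and -0.01, near the median of all tested probes, and the assembly factors at -0.43 and -0.47; the medians shift with the scaling as the text gives.

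Between 4-OHT and vehicle these lists were nearly without calls. No probe of any of them was called from 6 to 96 h. At 144 h, where 6.6% of all probes were called, both Mxd4 probes fell (1.31 and 1.03, adjusted p = 0.00726 and 0.0491), a MYC antagonist of the growth-control list. Rrp1b fell there by 0.85 ± 0.26 (adjusted p = 0.0453). The median differences of the assembly list were -0.04 at 96 h and 0.05 at 144 h, and those of the mitochondrial ribosomal proteins -0.06 and -0.03.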

How the data were processed

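For every array the deposited table gives each probe's linear bead intensity, not normalized, with its detection p-value; GenomeStudio and lumi are named in the submitters' processing notes. The authors also deposited log2 values made with lumi and quantile normalization, per the series' design text. Versions are not given in the sources used here. Of 45281 rows 21 were out of step with the header and left out. Intensities were normalized with neqc of limma 3.58.1 (R 4.3.3; offset 16, quantile, log2), which removes a shift shared by the brightest probes. A mean per group was fitted to the 40 arrays, with trended and robust variances (26 residual degrees of freedom). Tests are two-sided. The same code, run on simulated data with known changes at 96 h, was checked. Members, gene lists and tests were chosen with earlier results of these data known. Named are the called members, the 3 largest differences in a direction with under 3 calls, mainly of 4-OHT against vehicle, the 5 smallest p of each F test, paralogs, stalk and other listed proteins, and called genes of other lists, up to 5 in each direction. The deposited tables name genes through the platform annotation. The number of arrays limits the precision.

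Whether letters pair the arrays was checked by correlating residuals over probes. For the same letter the correlations were 0.367 to 0.783 at 18 to 96 h and 0.671 at 144 h, so the blocked values are given where they change a call. Between A and B, which share a run, they were 0.303 to 0.636. For A with A and B with B they were 0.367 to 0.635, so within that run a pairing by letter was not shown. For C, the only letter of its run, letter and run cannot be told apart. The earlier times showed no pairing (0.116, -0.0445 and 0.00852 for the letters at 6 h, then 0.421, 0.185 and -0.143 at 12 h).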

Additional observations from a re-analysis of the deposited data

How the results depend on the processing

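Of 334 counts of called ribosomal protein probes over the alternatives, 279 stayed within 1.5 times the reported count. Many of the reported counts were 0, where a ratio has no meaning, so this figure does not describe how firm the few calls were. The calls of Rpl22, Rps19, Rpl30 and Rps3 with time were refitted 209 times in all, and 34 refits lost the call (7 of Rpl22, 19 of Rps19, 1 of Rpl30 and 7 of Rps3). None turned the direction of a change from 18 to 96 h or from 6 to 12 h, but Rpl30, tested over all times only, had opposite signs in the 2 runs from 18 to 96 h; other named genes have only the alternatives given beside them. The authors' log2 values, an offset of 50, variances without robust moderation, the dim array left out and each time fitted alone moved no count. With the replicate letter as a block 4-OHT against vehicle gave 1 call at 48 h and 2 at 96 h, then 3 at 144 h as well as over all times, and with the letter across times 5 in the F test in vehicle; a block within each time could not be fitted for changes between times. The array run as a block gave 6 in that test (7.32%), against 20.2% of all probes. For 4-OHT against vehicle the run block called 0 of 82 at 48, 96 and 144 h and at any time, against 1.64%, 7.08%, 10.1% and 9.77%. Array weights, which gave the second run less weight, called 5 at 48 h, 4 at 96 h and 8 at any time against 13.0%, 22.2% and 28.3% of all probes. They called 17 and 23 from 18 to 96 h in vehicle and 4-OHT, 9 from 6 to 12 h in 4-OHT, and 23 and 35 in the F tests in vehicle and 4-OHT, against 44.7%, 46.8%, 8.66%, 51.1% and 57.5%. The first run alone, with 2 arrays a group, gave 1 at 18 h (Rpl28), 4 at 48 h and 1 at 96 h (Rpl38), 12 and 24 from 18 to 96 h, and 36 and 43 in the F tests, against 3.12%, 8.42%, 20.3%, 44.5%, 49.6%, 63.6% and 66.3% of all probes. Median scaling gave 0 from 18 to 96 h in both agents, 0 from 6 to 12 h in 4-OHT, and 1 and 0 in the F tests; with the dim array left out too it gave 1 from 18 to 96 h in vehicle, 0 from 6 to 12 h and 0 in the F test in 4-OHT. It moved the median of all probes to 0.34 at 6 h, -0.10 at 18 h and -0.11 at 144 h, with the members at 0.58, -0.04 and -0.11, and without the dim array to -0.07 at 6 h with the members at -0.06. Without the filter 1 was called from 18 to 96 h in vehicle and 1 in the F test in 4-OHT, since Rps19 was lost. Averaging the probes of a gene gave 0 from 6 to 12 h in 4-OHT. Leaving out 1 array, which at 144 h leaves a lone array taken to vary like the other groups, gave 0 to 1 at 144 h, at any time, from 6 to 12 h in either agent, 1 to 3 from 18 to 96 h in 4-OHT and in its F test, 1 to 2 from 18 to 96 h in vehicle, and 2 to 5 in its F test. The alternatives of the first run alone for times within an agent, the letter across times, variances without robust moderation and median scaling without the dim array were chosen after seeing the data. Shares of all probes are not given here for median scaling, no filter, averaged probes or 1 array left out. Those counts of members are thus not set against all probes. The causes of these moves were not tested.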
